A study of Mus musculus with 9 samples.

Results

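Tudor domain proteins read methylated arginines, and in the male germ line many of them sit in germ granules, the RNA-rich bodies without a membrane that gather beside mitochondria in spermatocytes and form the chromatoid body in round spermatids. PIWI proteins, which carry piRNAs (small RNAs that silence transposons and cleave messenger RNAs), are methylated on arginines of their N-terminal ends, and Tudor domains dock on those residues. Mouse males that lack individual members of the family are commonly sterile, with a block in meiosis or in the shaping of spermatids.

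The 10 genes described here are Tdrd1, Tdrd3, Tdrd5, Tdrd6, Tdrd7, Tdrd9, Tdrd12, Tdrkh, Rnf17 and Stk31. They were chosen by symbol, as the rows of the deposited tables whose NCBI gene identifier carries one of these names. All 10 were found among 21877 NCBI genes (50493 features with the transcripts that have other identifiers), and all 10 passed the filter on low counts that left 26030 features to test. Total RNA depleted of ribosomal RNA was sequenced from wild-type mouse testis cells of 3 types: pachytene spermatocytes (PAC), the meiotic cells in which homologous chromosomes pair; round spermatids (RS), haploid cells made by the meiotic divisions; and elongating spermatids (ES), in which the nucleus is compacted. Each type had 3 libraries, described by the submitters as biological replicates. The isolation of the cells, the age of the mice and the number of mice behind each library are not stated in the sources. The RNA was bulk, so fewer cells of a type and less RNA per cell cannot be told apart.

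Libraries held 22910156 to 33801617 counts, and no pair of libraries was alike enough to be 1 library deposited again. ES replicate 1 stood apart, with a normalization factor of 0.758 against 0.923 to 1.099 in the other libraries. Markers of each labelled cell type were present. The summed level of 12 pachytene markers was 1307 to 1509 CPM (counts scaled to the size of the library) in PAC, 703 to 734 CPM in RS and 532 to 655 CPM in ES, so spermatocyte genes were still present in both spermatid types. Much of the RS sum was Ccna1, with means of 305 CPM in PAC, 337 CPM in RS and 177 CPM in ES. Of the 12, 8 were called lower in RS than in PAC and 0 higher. The 12 round spermatid markers summed to 925 to 1171 CPM in PAC, 3142 to 3423 CPM in RS and 2299 to 3158.5 CPM in ES. Their sums in RS and ES thus overlapped, though 9 of the 12 were called lower in ES than in RS and 1 higher. The 12 elongating spermatid markers summed to 4317 to 5272 CPM in PAC, 19984 to 22428 CPM in RS and 50594 to 82587 CPM in ES. Markers of other testis cells also moved: 12 Sertoli cell genes summed to 61.3 to 146 CPM in PAC, 52.7 to 58.7 CPM in RS and 447 to 527 CPM in ES. Most of the RS sum was Amhr2, with means of 40.0 CPM in PAC, 47.7 CPM in RS and 186 CPM in ES. Macrophage and blood genes, 13 in all, summed to 7.28 to 12.6 CPM in PAC, 20.4 to 24.2 CPM in RS and 193 to 292 CPM in ES.

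The genes lie on 9 chromosomes of GRCm38.p6: Tdrd5 at chr1:156255296-156304304, Tdrkh at chr3:94413243-94434854, Tdrd7 at chr4:45965027-46034766, Stk31 at chr6:49395506-49469506, Tdrd12 at chr7:35466941-35537784, Tdrd9 at chr12:111971488-112068854, Rnf17 at chr14:56402650-56525032, Tdrd3 at chr14:87416178-87545508, Tdrd6 at chr17:43615334-43631846 and Tdrd1 at chr19:56826171-56870012. MYBL1 is the transcription factor that drives piRNA precursor genes at the pachytene stage, and it reads MYB motifs. Promoter sequences were available in the RefSeq table for 8 of the 10 genes. The 250 bases before a start held a MYB motif (TAACNG or CAACNG on either strand) in 4 of these 8, namely Tdrd5, Tdrd7, Tdrd12 and Tdrkh, and 46.5% of all 27025 genes in the table held it too. The cAMP-response core letters TGACG were found in 3 of the 8 (Tdrd1, Tdrd5 and Tdrd7) against 19.8% of all genes, the match in Tdrd5 overlapping its MYB match. The letters GTTGCC, read by RFX factors, were found in 0 of the 8 against 11.8%. A match describes letters alone and not binding, and windows without one say nothing of the factor.

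Shown here are 195 bases of RefSeq promoter (GRCm38.p6), 5′ to 3′ on the strand of the gene from 200 to 6 bases before a start, with MYB motif matches in capitals. They are given for the 3 genes with the largest falls from PAC to RS (Tdrd1, Tdrd12 and Tdrkh) and for Tdrd7, which was not called there. The windows are chr19:56826009-56826203 (plus strand) for Tdrd1, chr7:35537750-35537944 (minus strand) for Tdrd12, chr3:94413044-94413238 (plus strand) for Tdrkh and chr4:45965135-45965329 (plus strand) for Tdrd7.
Tdrd1: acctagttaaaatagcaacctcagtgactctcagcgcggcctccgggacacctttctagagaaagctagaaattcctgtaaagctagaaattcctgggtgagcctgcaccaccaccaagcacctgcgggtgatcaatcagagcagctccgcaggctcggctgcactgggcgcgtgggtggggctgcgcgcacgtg
Tdrd12: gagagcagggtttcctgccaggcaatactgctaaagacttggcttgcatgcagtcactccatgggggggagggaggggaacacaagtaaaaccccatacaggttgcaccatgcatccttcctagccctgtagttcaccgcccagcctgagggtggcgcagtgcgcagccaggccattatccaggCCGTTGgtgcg
Tdrkh: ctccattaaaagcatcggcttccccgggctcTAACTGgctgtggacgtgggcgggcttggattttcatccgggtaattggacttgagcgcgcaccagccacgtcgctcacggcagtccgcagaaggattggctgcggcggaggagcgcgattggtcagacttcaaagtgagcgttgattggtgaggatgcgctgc
Tdrd7: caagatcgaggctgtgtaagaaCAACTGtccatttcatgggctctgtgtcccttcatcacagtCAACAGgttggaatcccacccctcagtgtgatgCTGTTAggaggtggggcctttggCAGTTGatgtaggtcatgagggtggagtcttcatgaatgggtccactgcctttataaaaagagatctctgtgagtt
The Tdrd1 window had 0 matches, those of Tdrd12 and Tdrkh had 1 each, and that of Tdrd7 had 4. The 4 genes were picked for their change, so no relation between matches and change is read from them.

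From PAC to RS the Tudor domain genes fell. By edgeR's quasi-likelihood test on all 9 libraries (a call is a Benjamini-Hochberg adjusted p below 0.05), 8 of 10 were lower in RS, where 34.2% of all tested features and 46.9% of protein-coding genes were called lower. No member was called higher (38.2% of features and 26.3% of protein-coding genes were), 0 were higher at an unadjusted p below 0.05, and DESeq2 also called 0. By contrast, 1 member, Rnf17, was called higher when NCBI genes were fitted alone and in FPKM (a level per transcript length). In the fit of all features, the members' median log2 fold change was -1.27, against 0.11 over all features and -0.46 over protein-coding genes. Markers of other cells moved in the same comparison. Of the tested Leydig cell markers 9 of 10 were called lower in RS (median -6.60), and their summed level of 28.5 to 30.9 CPM in RS, against 122 to 157 CPM in PAC, was nearly all Fdx1 (27.6 CPM in RS), the 1 gene of the list not called. Sertoli markers were lower in 9 of 11 (median -2.59), and spermatogonial markers in 6 of 12 (2 higher). The spermatogonial sums were 97.2 to 127 CPM in PAC, mostly Id4 (mean 86.7 CPM), and 40.7 to 44.0 CPM in RS, mostly Gfra1 (mean 24.8 CPM). Macrophage and blood markers were higher in 7 of 12 (1 lower). The part of these cells in the members' fall was not tested. From RS to ES, 4 were called higher (24.5% of features, 31.8% of protein-coding genes) and 2 lower (22.1% and 21.7%). The members' median was 0.25, against 0.05 over all features and 0.18 over protein-coding genes. These counts and this median lie near those of protein-coding genes. Between ES and PAC, 8 were lower (33.7% of features, 42.6% of protein-coding genes) and 0 higher (30.6% and 25.2%, again 0 at an unadjusted p below 0.05 and 0 by DESeq2). The members' median in ES against PAC was -1.21, against -0.09 over all features and -0.39 over protein-coding genes. Upper-quartile scaling called 1 member, Stk31, higher in ES than in PAC. A joint test of the 3 cell types called 9 of 10, all but Tdrd7 (82% of features). The 3 comparisons share libraries, so their values are given side by side and are not independent.

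**Figure D1:**
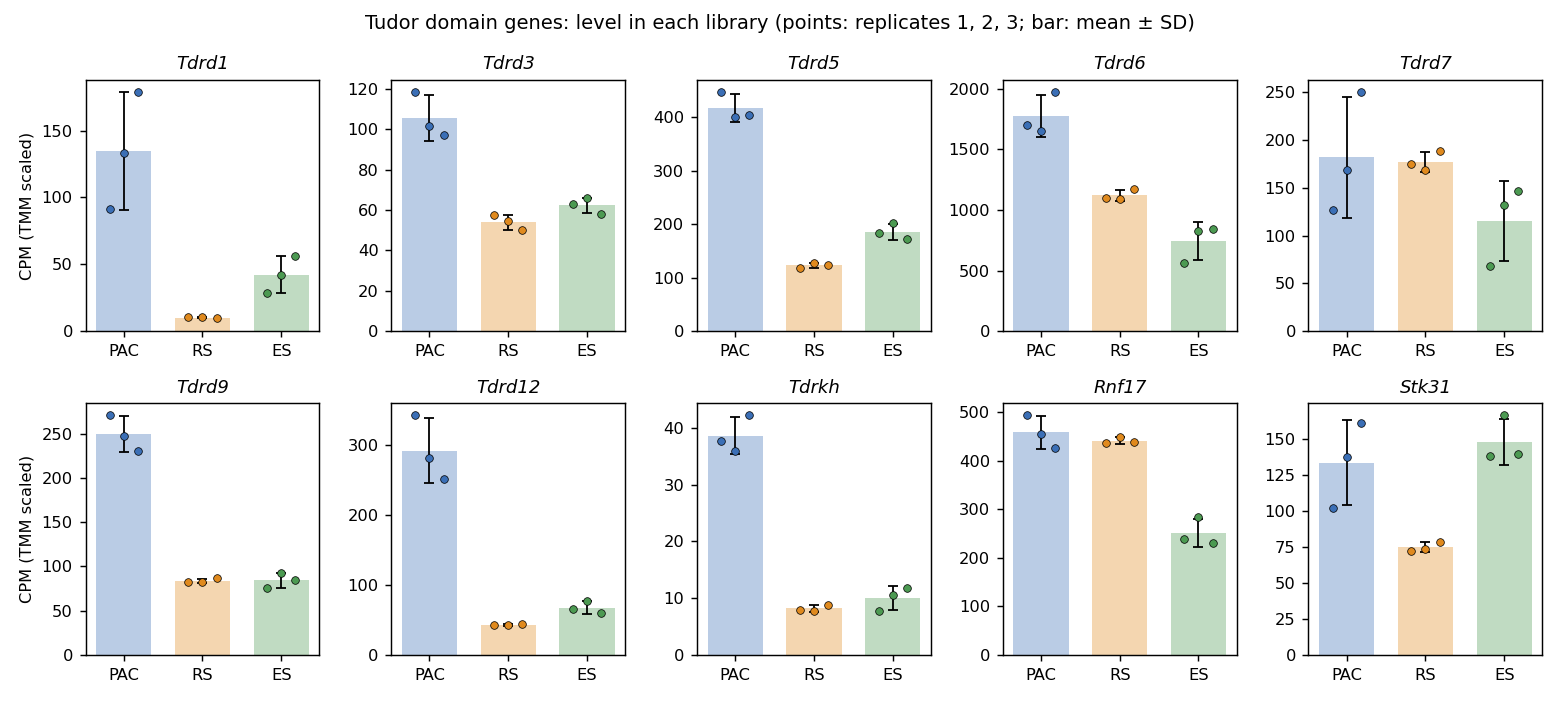
Level of each Tudor domain gene in CPM (vertical axis, from 0, a scale of its own per gene) in the 3 libraries of each cell type (points), with the mean and SD as bars. PAC libraries are the highest for Tdrd1, Tdrd3, Tdrd5, Tdrd6, Tdrd9, Tdrd12 and Tdrkh, while Tdrd7, Rnf17 and Stk31 have other patterns.

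Tdrd1, a multi-Tudor scaffold of the spermatocyte granules between mitochondria that binds the PIWI protein MILI (Piwil2), fell the most. Its libraries gave 91.2, 133 and 179 CPM in the 3 PAC libraries, 10.3, 10.4 and 9.99 CPM in RS, and 28.4, 41.8 and 56.2 CPM in ES. No groups overlapped, RS repeats were nearly alike, and PAC and ES repeats spread widely. The mean was 13.2-fold lower in RS than in PAC (log2 fold change -3.72, SE 0.29, adjusted p 1.89e-06), and only 2.4% of tested features had a lower value. Tdrd1 was then 4.12-fold higher in ES than in RS (2.04, SE 0.28, adjusted p 0.00017) and stayed below PAC (-1.67, SE 0.27, adjusted p 0.000262).

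Tdrd12, which joins Tudor and helicase-like domains and is needed to make the piRNAs that load MIWI2, measured 343, 282 and 252 CPM in PAC, 42.5, 42.5 and 44.5 CPM in RS, and 65.4, 77.4 and 59.9 CPM in ES. Here too the 3 groups were separate. The mean was 6.76-fold lower in RS (-2.76, SE 0.16, adjusted p 1.42e-07) and 4.32-fold lower in ES than in PAC (-2.11, SE 0.15, adjusted p 7.47e-07). ES stood above RS in CPM (0.65, SE 0.15, adjusted p 0.00417), a call lost when counts were scaled by library totals alone (0.32). In FPKM the difference was -0.23 (limma on log2(FPKM + 0.1), adjusted p 0.228). The FPKM divide by transcript length and also do not carry the normalization factors used for the CPM. The direction of this step thus differed between CPM and FPKM, which differ in both length and scaling.

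Tdrkh is the mitochondrial member, with KH and Tudor domains, that holds PIWI proteins while piRNA ends are trimmed. Its levels were 37.7, 36.0 and 42.2 CPM in PAC, 7.98, 7.70 and 8.85 CPM in RS, and 7.67, 10.5 and 11.8 CPM in ES. PAC lay above both spermatid groups, which overlapped each other. The mean was 4.72-fold lower in RS (-2.24, SE 0.18, adjusted p 1.33e-06) and 3.86-fold lower in ES (-1.95, SE 0.18, adjusted p 3.62e-06), and ES against RS was not called (0.29, SE 0.18, adjusted p 0.194). Without ES replicate 1 that step was called (0.45, adjusted p 0.0303). Its values carry an uncertainty of their own: 36.7% of its exon bases (2255 of 6142) also belong to Oaz3 on the opposite strand, an abundant spermatid gene that reached 20408 CPM, and the sources do not state whether the counting used strand. Oaz3 had means of 609 CPM in PAC, 3053 CPM in RS and 15730 CPM in ES. The part of Oaz3 reads in the Tdrkh values was not tested.

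Tdrd9 is an RNA helicase with a Tudor domain that acts with MIWI2 in transposon silencing. Its libraries gave 271, 247 and 230 CPM in PAC, 82.9, 82.3 and 86.6 CPM in RS, and 75.5, 92.8 and 84.4 CPM in ES. The spermatid groups overlapped and both lay below PAC. Tdrd9 was 2.97-fold lower in RS (-1.57, SE 0.13, adjusted p 1.58e-06) and 2.96-fold lower in ES (-1.56, SE 0.13, adjusted p 1.75e-06), with ES against RS at 0.00 (adjusted p 0.98).

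Tdrd5 carries LOTUS domains beside its Tudor domain, resides in the chromatoid body and is needed for pachytene piRNAs. It measured 447, 401 and 404 CPM in PAC, 118, 128 and 123 CPM in RS, and 183, 202 and 173 CPM in ES, with no overlap between groups. It was 3.39-fold lower in RS than in PAC (-1.76, SE 0.12, adjusted p 5.56e-07). ES exceeded RS by 1.51-fold (0.60, SE 0.12, adjusted p 0.00182), a call lost with library totals alone (0.27), and remained below PAC (-1.17, SE 0.12, adjusted p 8.35e-06).

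Tdrd3 differs from the rest in being expressed in many tissues, where its protein partners a topoisomerase and acts in transcription and translation. Its CPM were 119, 101 and 97.0 in PAC, 57.5, 54.5 and 50.1 in RS, and 62.8, 65.9 and 58.2 in ES. PAC was higher than either spermatid group, by 1.96-fold over RS (log2 fold change of RS against PAC -0.97, SE 0.13, adjusted p 5.37e-05) and by 1.70-fold over ES (-0.76, SE 0.13, adjusted p 0.000315). ES and RS did not overlap, yet their difference was not called (0.20, adjusted p 0.22).

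**Figure D2:**
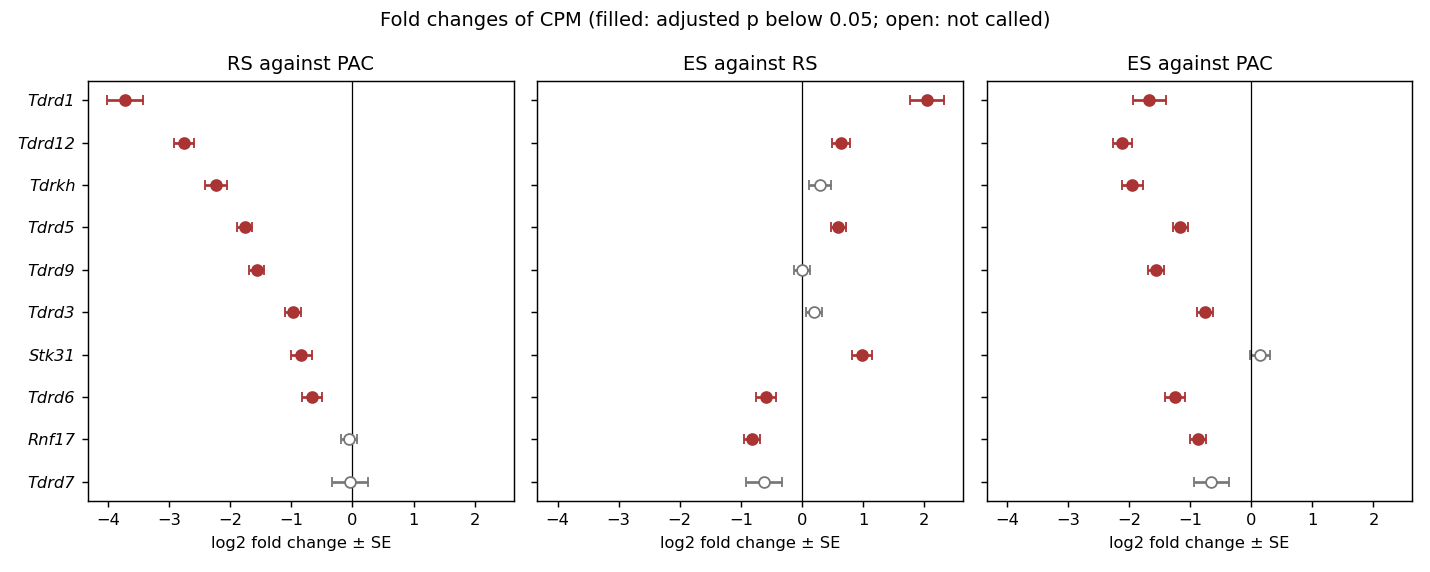
Log2 fold change of CPM (horizontal axis, with SE) of each Tudor domain gene in RS against PAC, ES against RS and ES against PAC. Filled points were called at an adjusted p below 0.05 and open points were not. Tdrd1, Tdrd12 and Tdrkh lie farthest below 0 in the first panel, Tdrd7 and Rnf17 sit near 0, and the second panel holds genes on both sides.

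The remaining genes did not follow that course. Tdrd6, a large scaffold of many Tudor domains and a core protein of the chromatoid body, had CPM of 1702, 1653 and 1977 in PAC, 1098, 1089.7 and 1174 in RS, and 566, 829.8 and 846 in ES. It stepped down at both transitions with no overlap, by -0.67 from PAC to RS (SE 0.16, adjusted p 0.00321) and by -0.58 from RS to ES (SE 0.16, adjusted p 0.0114), a 2.38-fold fall in all (-1.25, adjusted p 4.38e-05). The first step was not called with upper-quartile scaling (-0.35, adjusted p 0.0578) or when NCBI genes were fitted alone (-0.28, adjusted p 0.128).

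Rnf17, a RING finger and Tudor protein with a granule of its own that restrains piRNA amplification, measured 494, 455 and 427 CPM in PAC, 437, 449 and 439 CPM in RS, and 239, 284 and 230 CPM in ES. PAC and RS overlapped (-0.05, SE 0.13, adjusted p 0.71). ES was below both, 1.76-fold under RS (-0.82, SE 0.13, adjusted p 0.000328) and 1.83-fold under PAC (-0.87, SE 0.13, adjusted p 9.72e-05). Per transcript length the first step read differently: FPKM were 124, 123 and 112 in PAC and 164, 166 and 162 in RS, with no overlap (0.45, limma adjusted p 0.0107). A fit of the counts of NCBI genes alone also called Rnf17 higher in RS (0.34, adjusted p 0.0349).

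Tdrd7, a LOTUS and Tudor protein of the chromatoid body and also of the eye lens, was 126, 168 and 250 CPM in PAC, 174, 168 and 188 CPM in RS, and 68.0, 132 and 146 CPM in ES. PAC libraries spread across the RS range, and ES replicate 1 was far below the rest. None of its comparisons was called: -0.04 for RS against PAC (SE 0.29, adjusted p 0.915), -0.61 for ES against RS (SE 0.29, adjusted p 0.11) and -0.65 for ES against PAC (SE 0.29, adjusted p 0.0736). The last was called with library totals alone (-0.90, adjusted p 0.0417), in FPKM (-0.92, limma adjusted p 0.0288), without PAC replicate 1 (-0.88) and without ES replicate 3 (-0.86), and ES against RS was called in FPKM (-1.09) and with NCBI genes alone (-0.77).

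Stk31 joins a Tudor domain to a kinase-like domain. Its levels of 102, 137 and 161 CPM in PAC, 72.4, 73.2 and 78.7 CPM in RS, and 138, 166 and 140 CPM in ES made RS the low point, and the PAC and ES values overlapped. It fell by 0.83 on the log2 scale from PAC to RS (SE 0.17, adjusted p 0.000887) and rose 1.98-fold from RS to ES (0.98, SE 0.17, adjusted p 0.000599). ES against PAC was 0.15 (SE 0.17, adjusted p 0.449), called only with upper-quartile scaling (0.46) among the alternatives and below 0 without PAC replicate 1 (-0.03).

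Of the 4 genes called higher in ES than in RS (Tdrd1, Tdrd5, Tdrd12 and Stk31), Tdrd1 and Stk31 were also called with library totals alone. Other markers moved in the same comparison: 11 of 11 tested Sertoli markers were called higher in ES (median 5.29), as were 9 of 10 Leydig markers (1 lower, median 3.39), 9 of 12 macrophage and blood markers, 7 of 12 spermatogonial markers (1 lower) and 4 of 12 pachytene markers (3 lower). The Leydig genes summed to 28.5 to 30.9 CPM in RS and 34.5 to 40.0 CPM in ES, so their level stayed low. Fdx1 (means of 27.6 CPM in RS and 15.8 CPM in ES) and Nr5a1 (0.366 and 10.4 CPM) made up most of the ES sum. The spermatogonial genes summed to 40.7 to 44.0 CPM in RS and 51.5 to 62.5 CPM in ES. Much of these sums came from Gfra1 (means of 24.8 CPM in RS and 12.5 CPM in ES) and Id4 (6.99 and 18.2 CPM). The part of other cells in the rise of the 4 genes was not tested.

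Levels were compared between genes in FPKM. Tdrd6 ranked first and Rnf17 second of the 10 in every library, with mean FPKM of 260, 172 and 92.5 (PAC, RS, ES) for Tdrd6 and 119.9, 164 and 65.1 for Rnf17. In PAC the order went on with Tdrd5 (114 FPKM, SD 4.61), Tdrd12 (83.7, SD 12.5), Tdrd9 (57.9, SD 3.97), Tdrd7 (53.3, SD 18.5), Stk31 (39.9, SD 8.17), Tdrd3 (37.7, SD 3.49), Tdrd1 (28.7, SD 9.46) and Tdrkh (8.88, SD 0.641). Of these neighbours, Rnf17 and Tdrd5, Tdrd9 and Tdrd7, Tdrd7 and Stk31, Stk31 and Tdrd3, and Tdrd3 and Tdrd1 lay within the sum of their SDs. In RS, Tdrd1 (2.24 FPKM) and Tdrkh (2.41) stood apart from the other 8, which were at 20.5 or more. In ES, Tdrkh was at 2.14 FPKM and Tdrd1 at 7.61, with the other 8 at 15.99 or more.

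Together the 10 genes reached a summed FPKM of 804 ± 29.5 in PAC libraries, which was 516 ± 8.11 in those of RS and 330.03 ± 71.0 in those of ES (SD, n = 3), with no overlap between groups. Within this sum the make-up shifted. Tdrd6 supplied 32.3% in PAC, 33.3% in RS and 27.7% in ES, whereas Rnf17 went from 15.0% in PAC to 31.8% in RS and 19.97% in ES. Tdrd5 held 14.2%, 5.94% and 12.1% in the same order, and Tdrd12 10.5%, 4.52% and 6.15%. Stk31 held 4.94%, 4.28% and 11.9%, and Tdrd1 3.54%, 0.433% and 2.26%. In RS, Tdrd6 and Rnf17 thus made up most of the RNA per length of the set, and in ES the share was spread over more genes.

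**Figure D3:**
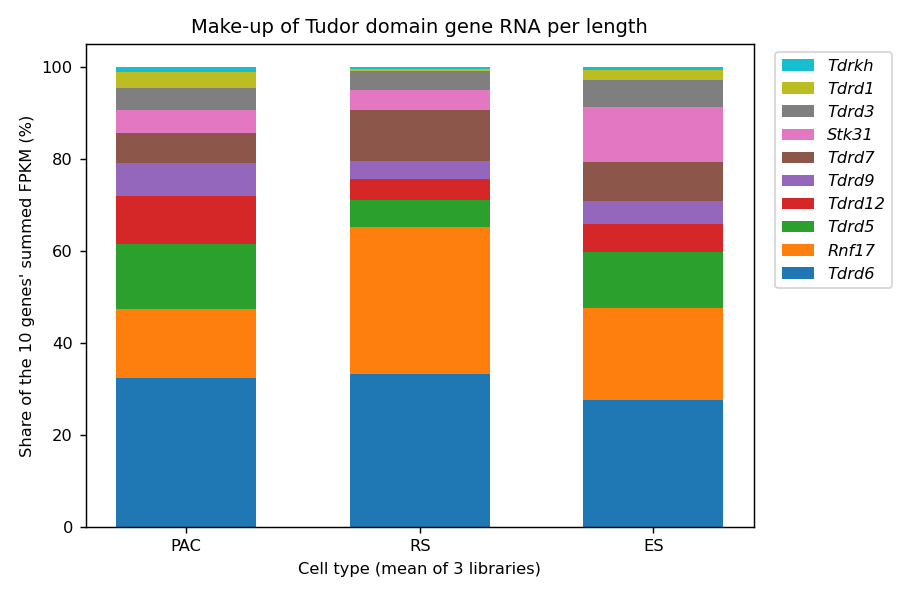
Share of each gene in the summed FPKM of the 10 Tudor domain genes (vertical axis, percent), as the mean of 3 libraries per cell type (horizontal axis). The Rnf17 segment is 15.0% in PAC and 31.8% in RS, and the Stk31 segment grows to 11.9% in ES.

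The counts and the FPKM of a gene differ by a length, so their ratio moves with the transcript length that the authors' software used for it. This ratio was examined after the data had been seen, in 8500 NCBI genes with at least 50 counts and 1 FPKM in every library, and its absolute scale rests on the library total used. For Tdrd12 it was 3.65, 3.64 and 3.70 kb in PAC, 2.05, 1.97 and 2.05 kb in RS, and 2.82, 3.07 and 2.93 kb in ES. The 3 groups were separate, with the shortest in RS (RS against PAC -0.86 on the log2 scale, SE 0.03, limma adjusted p 5.8e-05), and 1.71% of genes had a lower value. In that comparison 19% of genes were called lower and 5.87% higher. From RS to ES the ratio of Tdrd12 rose (0.54, adjusted p 0.000459, where 7.39% of genes were called higher and 5.46% lower), and it stayed below PAC (-0.32, adjusted p 0.000852, where 18.9% were called lower and 6.39% higher). GENCODE annotates protein-coding Tdrd12 transcripts of 3651, 3341, 1620, 1412, 769 and 543 bases.

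Rnf17 also had a shorter implied length in RS, with 4.07, 3.999 and 3.97 kb in PAC, 2.93, 2.94 and 2.96 kb in RS, and 3.29, 3.44 and 3.35 kb in ES. The fall from PAC to RS was -0.45 (SE 0.02, adjusted p 6.01e-05), and 4.95% of genes had a lower value. The rise from RS to ES was 0.19 (adjusted p 0.00156). By construction, the same counts over a shorter length give more FPKM. Its annotated protein-coding transcripts are 5264 and 2077 bases long. Tdrkh fell from a mean of 4.57 to 3.71 kb (-0.30, adjusted p 0.00718), with the Oaz3 overlap standing beside it. Tdrd5 went the other way, from 3.86 kb in PAC to 4.39 kb in RS (0.19, adjusted p 0.000155), and 98.6% of genes had a lower value. The other 6 genes moved by less than 0.15 on the log2 scale in each comparison. The scaffold Tdrd6 was nearly constant at 7.17, 7.13 and 7.15 kb, beside a longest annotated transcript of 7059 bases. The ratio was not bounded by the annotated lengths: Tdrd5 was at 4.39 kb in RS with a longest transcript of 3759 bases, and Stk31 at 3.51 kb in PAC and 3.70 kb in RS with a longest of 3237 bases. It is therefore read as a relative value between cell types and not as the length of a transcript.

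**Figure D4:**
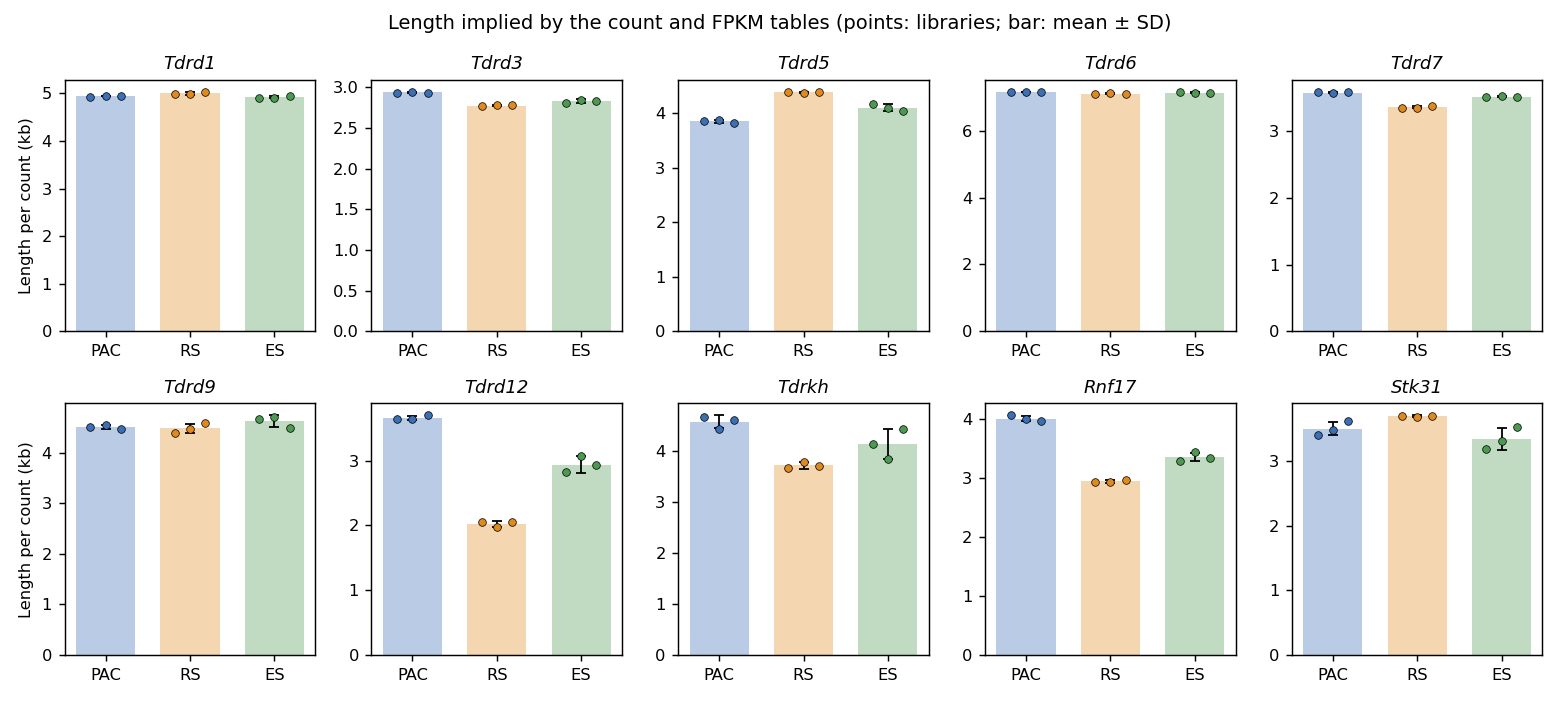
Length per count (kb, vertical axis) implied by the count and FPKM tables for each Tudor domain gene, with libraries as points and the mean and SD as bars. Tdrd12 drops from a mean of 3.66 kb in PAC to 2.02 kb in RS and is at 2.94 kb in ES, Rnf17 has the same order, and Tdrd6 is level.

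The partners of the Tudor proteins were read from 3 lists: PIWI proteins with other piRNA and germ granule genes, enzymes and cofactors of arginine methylation, and further Tudor domain genes that act mostly in chromatin or splicing. The last list also holds Spindoc, a partner of the Spin1 protein, and Setdb2, a relative of Setdb1, which lack a Tudor domain of their own and are counted with it. The calls over all protein-coding genes are set beside the counts of these lists. In RS against PAC, 46.9% of protein-coding genes were called lower and 26.3% higher (median -0.46). In ES against RS, 21.7% were lower and 31.8% higher (median 0.18). In ES against PAC, 42.6% were lower and 25.2% higher (median -0.39). Among the piRNA and granule partners, 21 of 22 were tested (not Piwil4), and 14 were lower and 3 higher in RS than in PAC, with a median of -1.96. Piwil1 (MIWI), the PIWI protein of pachytene cells and round spermatids, fell from 163 ± 35.8 to 7.26 ± 1.35 CPM (-4.49, adjusted p 1.02e-07), and Tex19.1, a transposon defence gene, changed by -3.46. Piwil2, a partner of Tdrd1, fell as well (217 ± 16.9 to 31.6 ± 3.85 CPM, -2.78), and so did Mybl1 (-1.96). Ddx4, the granule helicase VASA, was not called (333 ± 106 and 227 ± 22.5 CPM, -0.55, adjusted p 0.115), and neither was Mael (-0.07, adjusted p 0.639). The largest called rises were Kif17, a motor protein linked to the chromatoid body (1.82), and Tex15 (1.30).

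From RS to ES, 7 of these 21 partners were higher and 4 lower, with a median of 0.25. These values lie near those of protein-coding genes (31.8% higher, 21.7% lower, median 0.18). Piwil1 (2.10) and Tex19.1 (1.83) had the largest rises, and Piwil2 rose by 1.22. Tex15 (-1.41) and Asz1, a mitochondrial anchor of the granules (-0.69), had the largest falls, and Mael fell by 0.54. Ddx4 (-0.10) and Mybl1 (0.33) were not called. Between ES and PAC, 15 partners were lower and 2 higher.

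Of the genes of arginine methylation, which makes the mark that Tudor domains bind, 11 of 12 were tested (not Prmt8), and 8 were lower and 1 higher in RS than in PAC (median -2.43). Prmt5, the main symmetric dimethylarginine enzyme, went from 75.4 ± 15.7 to 10.2 ± 0.257 CPM (-2.88, adjusted p 2.48e-07). Prmt6 changed by -4.38, and the 1 called rise was Carm1 (0.98). In ES against RS, 6 were higher and 2 lower (median 1.19). Prmt6 (2.997), Prmt2 (2.78, a gene at 0.156 CPM in RS) and Prmt5 (1.19) rose, and Riok1 (-1.17) and Prmt7 (-0.58) fell. In ES against PAC, 9 were lower and 1 higher.

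Of this last list, 22 of 24 were tested (not Phf19, and Tdrd10 had no matching symbol), and 15 were lower and 5 higher in RS than in PAC (median -0.98). Lbr, a receptor of the inner nuclear membrane (-3.65), and Spin1, a histone reader (-2.52), fell the most. The mitochondrial anchor protein gene Akap1 (2.23) and Sgf29 (1.49) rose the most, and Snd1, a nuclease with a Tudor domain, fell by 0.94. In ES against RS, 10 were higher and 3 lower, a split that became 4 higher and 5 lower with library totals alone. Spin1 (3.92) and Akap1 (1.44) had the largest rises, Spindoc (-1.24) and the Tudor domain gene Trp53bp1 (-0.73) the largest falls of the list, and Snd1 rose by 0.92. In ES against PAC, 4 were higher and 10 lower.

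**Figure D5:**
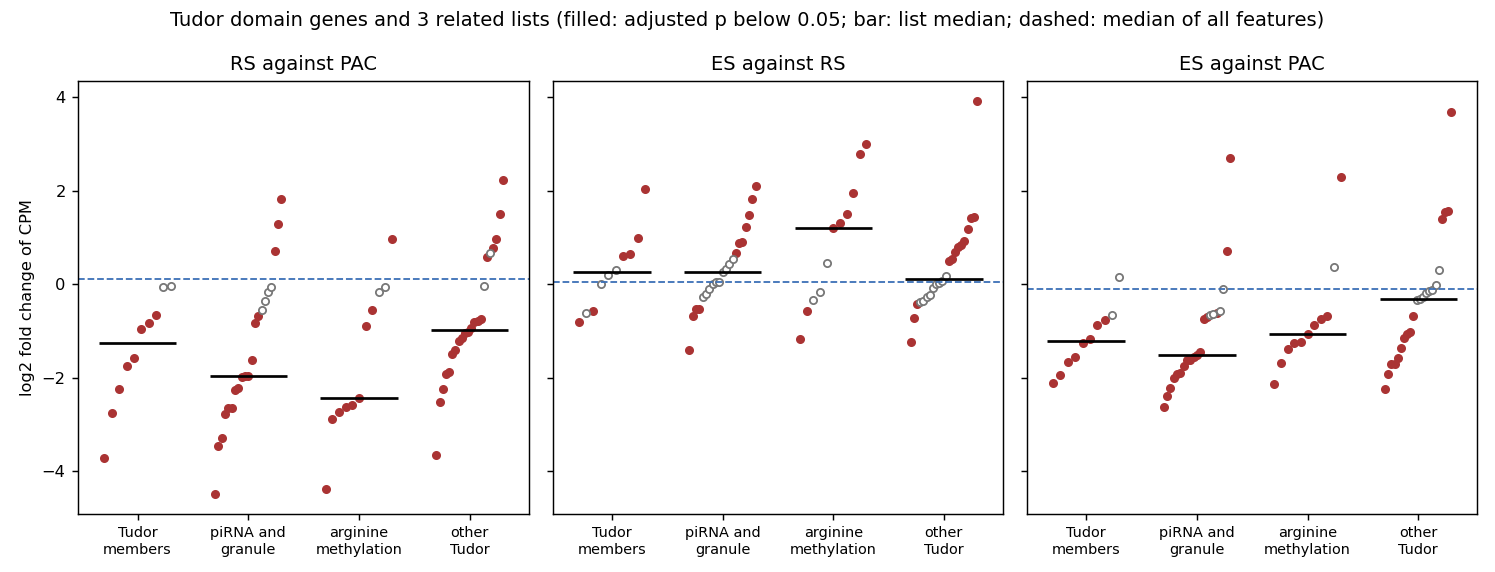
Log2 fold change of CPM (vertical axis) for the 10 Tudor domain genes and the 3 related lists in the 3 comparisons. Points are genes (filled where called at an adjusted p below 0.05), bars are list medians, and the dashed line is the median of all tested features. In RS against PAC the medians lie at -1.27, -1.96, -2.43 and -0.98, all below the dashed line at 0.11. They also lie below the median of protein-coding genes (-0.46, not drawn).

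Patterns were also set beside each other as the root mean square difference of log2(CPM + 1) over the 9 libraries, each gene centred on its own mean. This is a description of 9 libraries that share depth and composition. Within the set, the closest pair was Tdrd5 and Tdrd9 (0.26), then Tdrd9 and Tdrkh (0.27) and Tdrd6 and Rnf17 (0.32). The most distant pair was Tdrd1 and Rnf17 (1.54). Every member had a protein-coding gene outside the set (mean of at least 10 CPM) closer than any fellow member. Far more genes were searched outside the set than within it, so a closer outside gene says nothing of a shared pattern. The nearest to Rnf17 were Itfg1 (0.03) and Kif18a (0.05), to Tdrd9 Map2k5 (0.04) and Abhd13 (0.06), to Tdrd3 Wdr46 (0.05) and Wdr45b (0.08), and to Tdrd6 Supt20 (0.05) and Fbxl20 (0.07). Tdrkh was nearest to Urb1 (0.06) and Prok2 (0.10), Tdrd5 to Phf23 and Gzf1 (both 0.07), and Tdrd12 to Gpn3 (0.09) and Rnf166 (0.11). Tdrd7 was nearest to Gm17359 and N4bp2 (both 0.10) and Stk31 to Dnah7c (0.10) and Stag1 (0.11). Tdrd1 had the least close neighbours, Ccp110 (0.18) and Mllt10 (0.21). Ccp110 measured 317 ± 60.7 CPM in PAC, 24.2 ± 0.270 in RS and 86.2 ± 32.3 in ES.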

How the data were processed

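Total RNA without ribosomal RNA was sequenced in 3 libraries each of PAC, RS and ES. Per the submitters' processing notes, the tools included HISAT2 and StringTie and the build was GRCm38.p6, with no versions or roles given. The deposited counts are estimated counts per feature, since 18.85% of values were not whole, although the authors call them raw; they were rounded here. FPKM were taken as the authors deposited them. The sources do not state their denominators.

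Counts were fitted with edgeR 4.0.16 (filterByExpr with a minimum count of 10, TMM factors, robust quasi-likelihood, all 9 libraries, BCV 0.24) in R 4.3.3, two-sided, with Benjamini-Hochberg adjustment over 26030 features. The fit was tested on simulated data. CPM are TMM scaled, and SE is the size of the log2 fold change divided by the square root of F. The p-values set the difference between groups against the spread between libraries, which is not known to be a spread between mice. FPKM were tested with limma 3.58.1 on log2(FPKM + 0.1). DESeq2 1.42.0 served as an alternative.

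The count to FPKM ratio used library totals and limma on its log2. It was chosen after seeing the data, and so were its restriction to NCBI genes and its centring on the median deviation from the gene means, which replaced centring on the library median. Every member is named. From each partner list, the 2 largest calls per direction in RS against PAC and in ES against RS are named, plus Piwil1, Piwil2, Ddx4, Mael, Mybl1, Prmt5 and Snd1. For each member the 2 nearest patterns are named. Members and lists were chosen with earlier results of these data known. A planned protein alignment was not run, as no protein table was used here. Alternatives were other scalings, filters and tests, FPKM, a replicate block and leaving out each library.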

Additional observations from a re-analysis of the deposited data

How the results depend on the processing

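The calls of 8 members lower in RS than in PAC held in number (7 to 8) under the scalings, filters, tests and units tried, and leaving out single libraries gave 8 in every case, with 4 to 5 higher and 2 lower in ES against RS and 8 to 9 lower in ES against PAC. One member was called higher (1 in place of 0) in RS against PAC with NCBI genes alone and in all 3 FPKM settings, and 1 in ES against PAC with upper-quartile factors. In ES against RS, 2 were higher with library totals alone and with unfiltered FPKM.

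Reversals concerned mostly values near 0. In RS against PAC, Tdrd7 was 0.0028 with library totals, 0.28 with upper-quartile factors, 0.051 with a minimum count of 50, 0.35 with NCBI genes alone, 0.17 or 0.16 in FPKM (pseudocount 0.1 or 1) and -0.24 to 0.27 without single libraries. Rnf17 was 0.25 with upper-quartile factors, 0.036 with a minimum count of 50, 0.34 with NCBI genes alone and 0.45 in FPKM. In ES against RS, library totals gave -0.13 for Tdrd3, -0.31 for Tdrd9 and -0.017 for Tdrkh. FPKM with pseudocount 0.1 (or 1) gave -0.16 (-0.15) for Tdrd3, -0.38 (-0.36) for Tdrd9, -0.23 (-0.22) for Tdrd12 and -0.20 (-0.14) for Tdrkh. Tdrd9 was also -5e-04 with upper-quartile factors, -0.038 unfiltered, -0.13 with NCBI genes alone and -0.071 to 0.078 without single libraries. Stk31 in ES against PAC was -0.13 with library totals, -0.037 or -0.036 in FPKM (pseudocount 0.1 or 1) and -0.034 to 0.28 without single libraries. The length ratio of Tdrd9 in RS against PAC ranged from -0.027 to 0.0043 without single libraries. The cause was not tested.

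The shift of a setting is given as the median, over the features tested in both fits, of the difference in log2 fold change from the values reported. Library totals shifted ES against RS by -0.33 and ES against PAC by -0.28, upper-quartile factors shifted RS against PAC by 0.31 and ES against PAC by 0.30, DESeq2 factors shifted ES against RS by 0.14, and NCBI genes alone shifted the 3 comparisons by 0.39, -0.14 and 0.25. The share of calls that were higher went from 52.6% to 34.4% in ES against RS with library totals and from 47.6% to 57.9% in ES against PAC with upper-quartile factors. With NCBI genes alone, where fewer features are tested, 5175 were higher and 5459 lower in RS against PAC, and 4669 and 5509 in ES against PAC. In ES against RS, FPKM called 3635 (pseudocount 0.1), 3936 (1) or 3975 (unfiltered) higher, and 8740 lower with pseudocount 1. The list of further Tudor genes in ES against RS gave 4 higher and 5 lower with library totals, 5 lower with NCBI genes alone, and 3 higher with 6 lower in FPKM (5 unfiltered). Of the piRNA partners, 2 were lower in ES against RS with DESeq2 factors, and 1 was higher in ES against PAC with library totals and with unfiltered FPKM.

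Correlations of deviations did not settle whether replicate numbers pair the libraries. They were -0.091 to 0.488 for the same number and -0.416 to 0.186 for different numbers. Between PAC and ES, the same number gave 0.307 for replicate 1, -0.091 for replicate 2 and 0.488 for replicate 3. The same-number values of the other comparisons lay within the range of different numbers. With the replicate block, 10117 features were higher and 8950 lower in RS against PAC (9956 and 8907 without it), Tdrd7 was 0.036 there, and it was the member added to the lower calls in ES against RS (-0.70) and in ES against PAC (-0.66).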
